A study of Homo sapiens with 30 samples.

Results

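The genes described are 10 parts of the prolactin pathway: the prolactin receptor gene PRLR, the kinase gene JAK2, the transcription factor genes STAT3, STAT5A and STAT5B, the feedback inhibitor genes SOCS1, SOCS2, SOCS3 and CISH, and the repressor gene BCL6. They were chosen by name and found by their Ensembl identifiers among the 60554 genes counted in each library. The RNA-seq libraries come from T47D, a line of human luminal breast cancer cells known for abundant progesterone receptor, grown at passages 18 to 20. The 12 libraries formed 6 groups of 2.

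The groups labelled ICRF were cells with progestin and untreated cells, with no siRNA, arrest or time named in their titles. The labels leave the name ICRF unexplained; it usually stands for a drug that inhibits topoisomerase II. The siCEBPA groups, with progestin and untreated, received an siRNA against CEBPA, which encodes the transcription factor C/EBPα. The siControl groups, with progestin and untreated, received a control siRNA. All 8 siRNA libraries had a short arrest, during which cells sat for 4 hours in medium with charcoal-treated serum. The titles call the hormone progesterone, and the protocol names it as R5020, a synthetic progestin, at 10 nM. Progestin siRNA libraries carry the time label T360 and untreated ones T0, with no unit, so hormone and time label cannot be told apart there. Between ICRF and siRNA cells, drug and experiment cannot be told apart. T47D is a single line, and nothing states that the 2 libraries of a group came from separate cultures, so p-values reflect only how far these particular libraries scatter, and that scatter may be technical. The series also holds 18 ChIP samples, which were not analysed here.

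Prolactin binds its receptor on the surface of breast epithelial cells, and the JAK2 kinase bound to the receptor then phosphorylates STAT5A and STAT5B. The activated STAT5 proteins enter the nucleus, bind DNA elements known as GAS sites, and switch on milk protein genes and survival genes during alveolar development. STAT3, a relative that answers to cytokines of the IL-6 family, drives the return of the gland to its resting state after weaning. STAT5 also switches on CISH and SOCS genes, whose proteins block the receptor or JAK2 and so close a feedback loop. BCL6 is a zinc finger repressor that recognises elements much like the GAS site. In the mammary gland progesterone and prolactin act together on alveolar development.

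Total counts ran from 57364785 to 148624099 per library, with siControl untreated replicate 2 the deepest. Levels are in CPM, counts per library total with TMM scaling. Each change is a log2 fold change ± SE by the quasi-likelihood test of edgeR, and a gene was called at an adjusted p under 0.05, adjusted over all genes tested. The 9 luminal marker genes had counts in every library, with lowest levels from 26.9 CPM for ESR1 to 1660 CPM for KRT8. Their sum was lowest in ICRF progestin cells, where it reached 5280 CPM, and was 10600 CPM in both ICRF untreated libraries. The 6 blood cell markers, checked because blood cells also use STAT5, SOCS1, CISH and BCL6, summed to between 0.665 and 1.20 CPM, with CD3E at 0 in 9 libraries and HBB at 0 in 10. Endothelial markers summed to at most 0.767 CPM, basal markers to at most 35 CPM (mostly ACTA2) and fibroblast markers to at most 73.3 CPM, of which COL1A1 made up most. CEBPA itself stood at 57.5 and 62.2 CPM in siCEBPA progestin cells against 207 and 204 CPM in siControl progestin cells. In untreated cells it stood at 10.7 and 12.1 CPM with siCEBPA against 47.8 and 54.4 CPM with siControl, a log2 change of -2.16 ± 0.07.

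The promoter of CISH is shown because CISH is a textbook STAT5 target and had the widest range among the 10 genes, 3.38 log2 units between its highest and lowest group mean. The promoter table held starts for 9 of the 10 genes, 17 starts in all. In the 250 bases before each start, both strands were searched for the GAS letters TTCNNNGAA, the palindromic progesterone and glucocorticoid receptor element, and the C/EBP letters TTGCNNAA. GAS matches were present at CISH, with 4, and at BCL6, with 1, and the motif as written reads the same on both strands. Of all 35116 promoters in the table, 6.57% hold a GAS match, 0.33% the receptor element and 9.05% the C/EBP letters. The receptor element and the C/EBP letters had no match in the windows of these genes. The sequences come from RefSeq on GRCh38.p14, both on the minus strand of chromosome 3, 5′ to 3′, with GAS matches in capitals. The CISH stretch, chr3:50611832-50612024, covers bases -250 to -58 before the RefSeq start and ends where the gene begins in the files' annotation. The BCL6 stretch, chr3:187745478-187745506, is the match with 10 bases on each side, at bases -38 to -10 before a RefSeq start that lies 259 bases inside the gene of the files' annotation.
CISH: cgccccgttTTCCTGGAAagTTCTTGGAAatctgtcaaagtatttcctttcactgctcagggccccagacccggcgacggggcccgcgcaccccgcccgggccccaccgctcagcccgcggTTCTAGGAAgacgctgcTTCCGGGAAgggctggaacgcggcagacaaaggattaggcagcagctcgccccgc
BCL6: gaagctcaaaTTCCGAGAAttgagctctg
The 4 CISH matches fall in 2 close pairs, at -241 to -233 with -230 to -222 and at -129 to -121 with -112 to -104. These matches are descriptions of letters, and no binding was measured here.

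**Figure D1:**
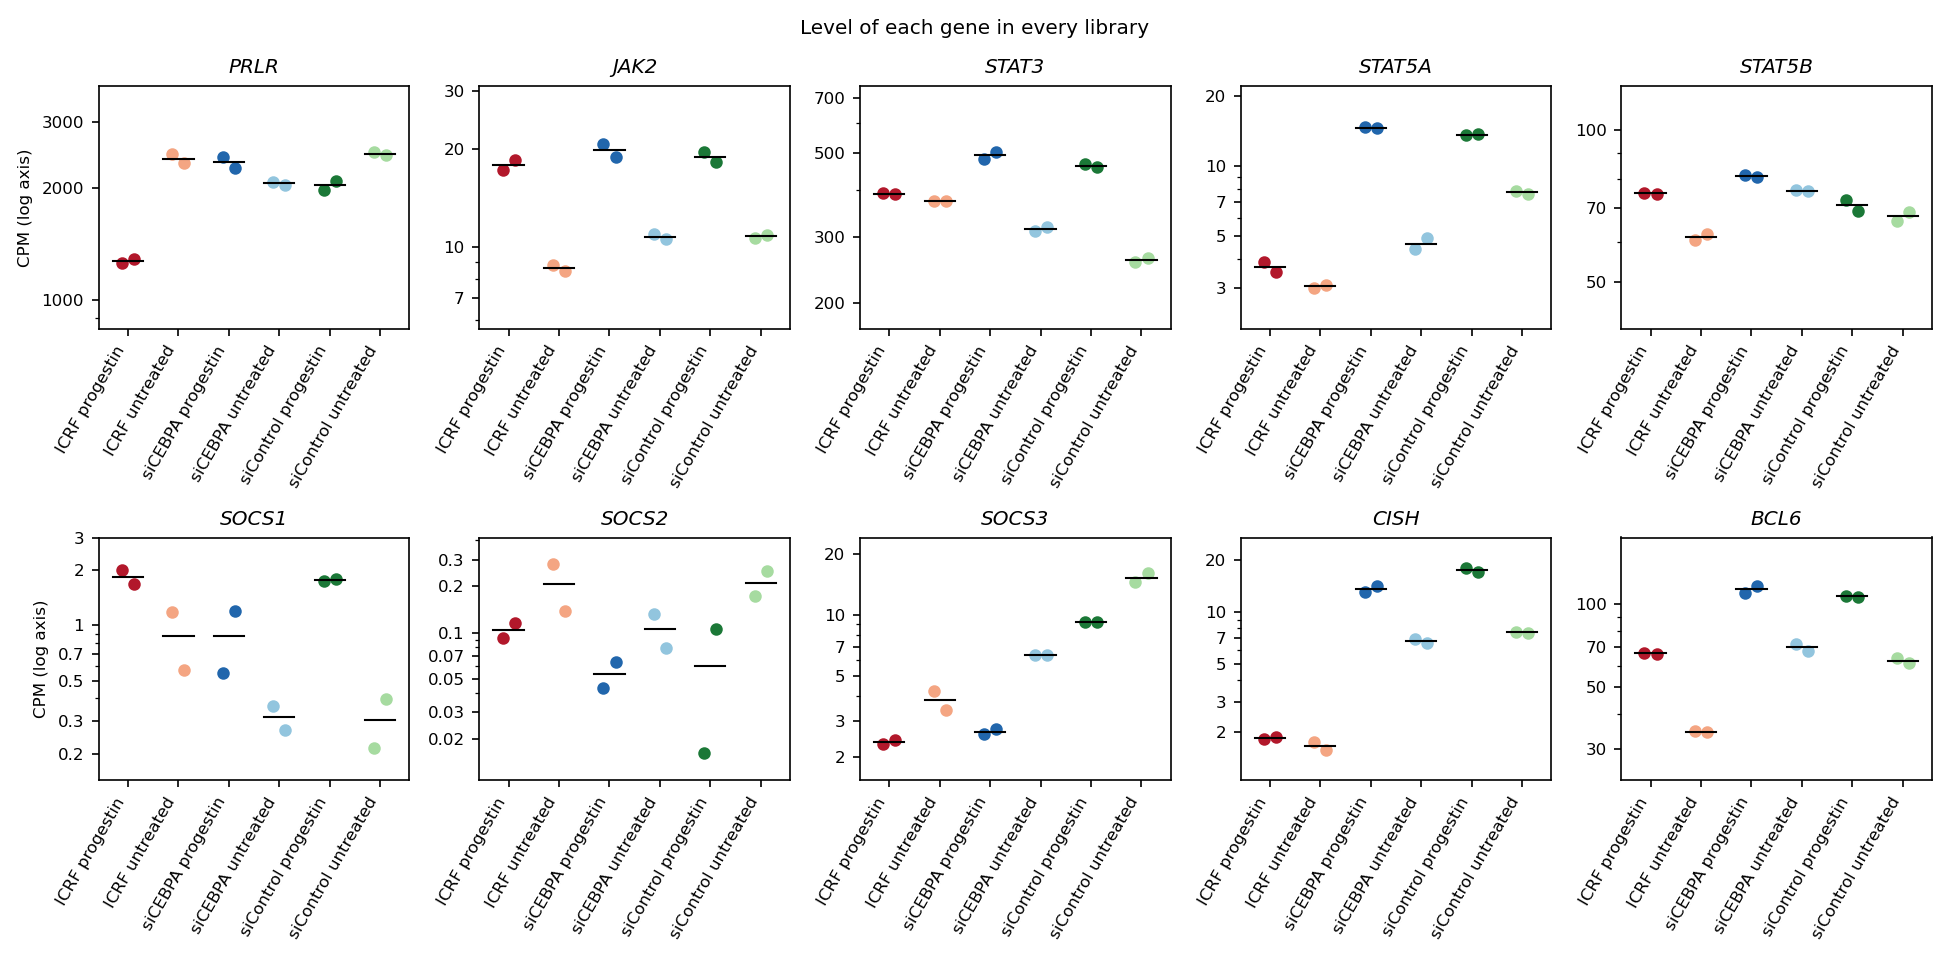
Each panel plots 1 gene: the level in CPM on a log axis against the 6 groups, with a point for each library and a black line at the mean of the 2. PRLR stands between 1260 and 2488 CPM, while CISH in the 4 ICRF libraries lies at or below 1.88 CPM against 6.62 CPM or more in every siRNA library.

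The receptor was the most abundant of the 10 genes per length of transcript. PRLR, on chromosome 5 from 35048756 to 35230589 on the minus strand of hg38, averaged between 97.4 CPM per kilobase of exon in ICRF progestin cells and 188 in siControl untreated cells. STAT3 came next, with 29.5 to 55.9 CPM per kilobase over the 6 groups. STAT5B (9.53 to 12.6) and BCL6 (5.82 to 19.1) followed. JAK2 (1.49 to 3.43), STAT5A (0.53 to 2.53), CISH (0.33 to 3.41), SOCS3 (0.87 to 5.58) and SOCS1 (0.25 to 1.5) were low, and SOCS2 reached no more than 0.031 CPM per kilobase. PRL, the gene of prolactin itself, had at most 3 counts in any library.

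PRLR was lower with progestin in ICRF and siControl cells, and by more with ICRF. It stood at 1260 and 1293 CPM in ICRF progestin cells against 2453 and 2321 CPM in ICRF untreated cells, a log2 change of -0.92 ± 0.03 (adjusted p = 6.88e-27). In siControl cells it stood at 1973 and 2088 CPM with progestin against 2488 and 2439 CPM untreated (log2 -0.29 ± 0.04, adjusted p = 2.95e-05). In both pairs the libraries with and without hormone lay apart. Genes that were not called lay apart too, and the share of all genes that did was not counted, so this carries no weight. The siCEBPA cells went the other way, with 2414 and 2252 CPM with progestin against 2074 and 2037 CPM untreated (log2 0.17 ± 0.04, adjusted p = 0.00286). That rise rested on the scaling: without scaling factors the levels were 2347 and 2190 against 2265 and 2244 CPM of the library total, and the log2 change was 0.009 ± 0.042 (adjusted p = 0.865). It was also lost with upper quartile factors (0.045 ± 0.042, adjusted p = 0.376) and without siCEBPA progestin replicate 1 (0.122 ± 0.051, adjusted p = 0.0522).

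The difference between the progestin responses of PRLR was itself past the threshold in both tests. The siCEBPA response exceeded the siControl response by 0.47 ± 0.06 (adjusted p = 0.000217), and the ICRF response lay below the siControl response by a log2 difference of -0.62 ± 0.06 (adjusted p = 9.30e-09). Both calls were made under every alternative run. The siRNA against CEBPA went with opposite changes in the presence and absence of hormone. With progestin, PRLR was higher in siCEBPA than in siControl cells by 0.22 ± 0.04 (adjusted p = 0.000814), and untreated it was lower, by a log2 change of -0.25 ± 0.04 (adjusted p = 0.000221). Ordered by mean, siControl untreated, ICRF untreated and siCEBPA progestin cells came first and overlapped with their neighbours, siCEBPA untreated and siControl progestin cells came next and overlapped with each other, and ICRF progestin cells stood alone at 1277 ± 23.6 CPM (SD, n = 2).

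JAK2, which encodes the kinase that carries the signal from the receptor (chromosome 9 from 4985033 to 5128183, plus strand), was higher with progestin in all 3 backgrounds. ICRF progestin cells had 17.3 and 18.5 CPM against 8.85 and 8.45 CPM in ICRF untreated cells (log2 1.03 ± 0.07, adjusted p = 1.84e-16). In siCEBPA cells the levels were 20.8 and 19.0 CPM with progestin against 11.0 and 10.6 CPM untreated (0.88 ± 0.08, adjusted p = 7.75e-08). The siControl cells had 19.6 and 18.3 CPM with progestin against 10.7 and 10.9 CPM untreated (0.80 ± 0.08, adjusted p = 1.82e-07). In the order of means siCEBPA, siControl and ICRF progestin cells each overlapped with the next. The siRNA left JAK2 uncalled, at 0.09 ± 0.08 with progestin (adjusted p = 0.387) and 0.01 ± 0.08 without (adjusted p = 0.959). The ICRF response exceeded the siControl response by 0.24 ± 0.10 (adjusted p = 0.064), which passed the threshold with upper quartile factors (0.281 ± 0.105, adjusted p = 0.0318) and without scaling factors (0.391 ± 0.104, adjusted p = 0.00338).

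The 3 STAT genes lie next to one another on chromosome 17, with STAT5B from 42199168 to 42276707 on the minus strand, STAT5A from 42287547 to 42311943 on the plus strand and STAT3 from 42313324 to 42388568 on the minus strand. They responded to the hormone in different ways. STAT5A and STAT5B are near-identical paralogs, and reads with several alignments were not counted, so the split of signal between them is uncertain.

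STAT5A had 3.87 and 3.52 CPM in ICRF progestin cells against 3.02 and 3.09 CPM in ICRF untreated cells (log2 0.26 ± 0.12, adjusted p = 0.0706), which missed the threshold. It passed in the fit of all 12 libraries (0.274 ± 0.096, adjusted p = 0.0195) and without ICRF progestin replicate 2 (0.331 ± 0.144, adjusted p = 0.0405). In siCEBPA cells STAT5A had 14.7 and 14.5 CPM with progestin against 4.40 and 4.91 CPM untreated, a rise of 1.64 ± 0.09 (adjusted p = 1.31e-10). The siControl cells had 13.6 and 13.7 CPM with progestin against 7.84 and 7.59 CPM untreated, a rise of 0.81 ± 0.08 (adjusted p = 3.12e-07). The siRNA groups differed without the hormone and were not called different with it. With progestin the log2 change of siCEBPA over siControl cells was 0.11 ± 0.08 (adjusted p = 0.275), and in untreated cells it was -0.72 ± 0.09 (adjusted p = 7.05e-06). The response with siCEBPA exceeded that with siControl by 0.83 ± 0.12 (adjusted p = 0.000416), and the ICRF response fell short of the siControl response, at -0.55 ± 0.13 (adjusted p = 0.00122).

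STAT5B moved little. ICRF progestin cells had 75.1 and 74.9 CPM against 60.6 and 62.3 CPM in ICRF untreated cells, a rise of 0.27 ± 0.04 (adjusted p = 2.92e-07). The levels in siCEBPA cells were 81.6 and 80.6 CPM with progestin against 76.1 and 75.6 CPM untreated (0.09 ± 0.05, adjusted p = 0.115). In siControl cells they were 72.8 and 69.2 CPM with progestin against 66.2 and 68.9 CPM untreated (0.06 ± 0.05, adjusted p = 0.287). Neither siRNA response was called, and both turned below 0 without scaling factors (-0.077 with siCEBPA, adjusted p = 0.149, and -0.094 with siControl, adjusted p = 0.0804) and with upper quartile factors. The whole range of its group means was 0.40 log2 units, the narrowest of the 10 genes. STAT5B was higher with siCEBPA than with siControl, by 0.21 ± 0.05 with progestin (adjusted p = 0.00188) and by 0.18 ± 0.05 untreated (adjusted p = 0.00511). The untreated call was lost without siControl untreated replicate 1 (0.142 ± 0.058, adjusted p = 0.0609). The ICRF response exceeded the siControl response by 0.22 ± 0.06 (adjusted p = 0.00505).

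STAT3 was higher with progestin in both sets of siRNA cells. The levels were 484 and 502 CPM in siCEBPA progestin cells against 311 and 318 CPM in siCEBPA untreated cells (log2 0.64 ± 0.04, adjusted p = 4.78e-10), and in siControl cells 468 and 460 CPM with progestin against 256 and 263 CPM untreated (0.82 ± 0.04, adjusted p = 1.95e-11). With ICRF the gene stood at 391 and 390 CPM with progestin against 374 and 372 CPM untreated, a change of 0.05 ± 0.03 that was not called (adjusted p = 0.185) and was -0.019 with upper quartile factors. The ICRF response lay below the siControl response by a log2 difference of -0.77 ± 0.05 (adjusted p = 3.70e-11). The siCEBPA response was smaller than the siControl response by a log2 difference of -0.18 ± 0.05, with an adjusted p of 0.0496 that missed the threshold on leaving out any 1 of the 8 siRNA libraries (adjusted p = 0.050 to 0.188) and with no filter on low counts (adjusted p = 0.0692). STAT3 was higher with siCEBPA than with siControl in untreated cells (0.29 ± 0.04, adjusted p = 1.34e-05). With progestin that difference was 0.10 ± 0.04 (adjusted p = 0.0347), lost without siControl progestin replicate 1 (0.099, adjusted p = 0.151) or 2 (0.090, adjusted p = 0.199), without siCEBPA progestin replicate 2 (0.081, adjusted p = 0.186), with no filter on low counts (0.089, adjusted p = 0.110), with DESeq2 (0.095, adjusted p = 0.0647) and with DESeq2 size factors (0.095, adjusted p = 0.0538).

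**Figure D2:**
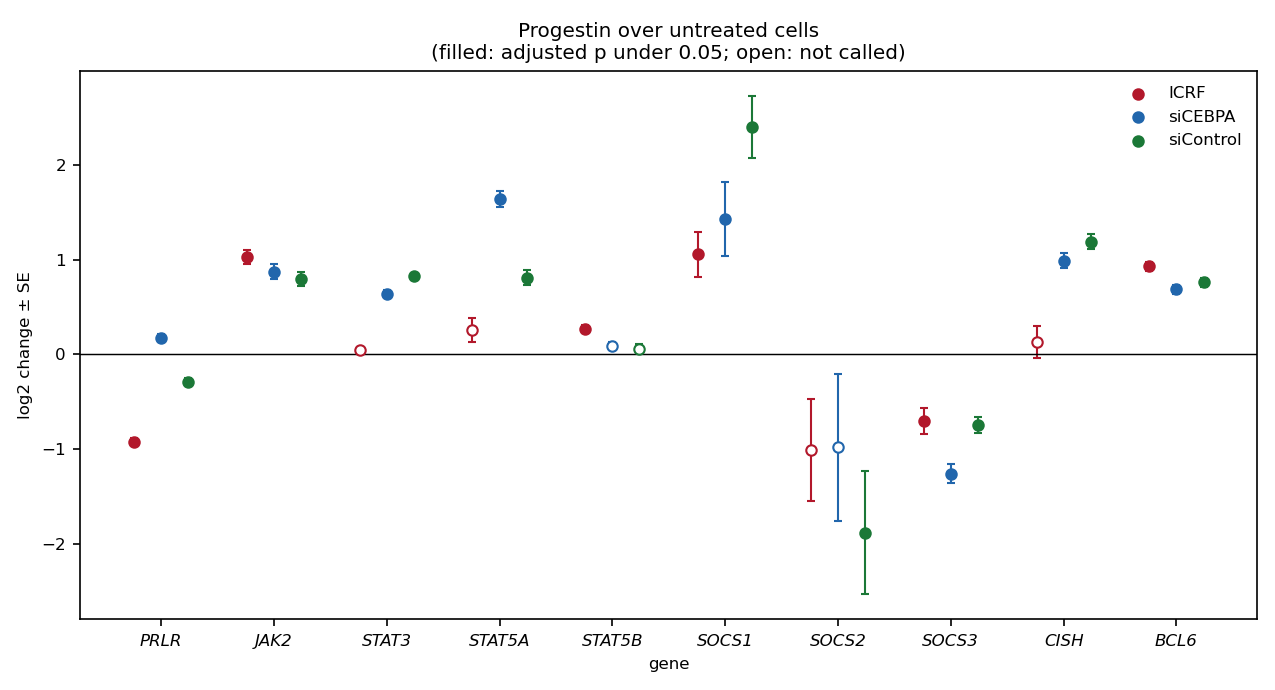
The log2 change with progestin over untreated cells (y axis, ± SE) is plotted for each of the 10 genes (x axis) in ICRF, siCEBPA and siControl cells, with filled points for an adjusted p under 0.05. JAK2, SOCS1 and BCL6 lie above 0 and SOCS3 below 0 in all 3 backgrounds, while STAT3 and CISH with ICRF are open points near 0.

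Over the 10 genes, all of which passed the filter on low counts, progestin raised 4 and lowered 2 in ICRF cells, where 31.3% of all genes tested were called higher and 30.0% lower. In siCEBPA cells 7 rose and 1 fell, beside 29.9% and 28.4% of all genes. In siControl cells 6 rose and 3 fell, beside 29.2% and 29.3%. One of those 3 is SOCS2, which passed the filter in siRNA cells only through the siControl untreated libraries, so its fall there carries no weight. The median log2 change of the 10 genes was 0.20 with ICRF, 0.66 with siCEBPA and 0.78 with siControl, against -0.01, -0.03 and -0.04 over all genes tested. Without scaling factors the median over all genes moved to -0.19 in both siRNA responses, and the share of calls that were higher was 33.3% in place of 51.3% with siCEBPA and 33.9% in place of 50.0% with siControl. With upper quartile factors the medians were -0.16 and -0.15 and the shares 36.9% and 38.2%. Changes in siRNA cells are relative to this point.

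The feedback inhibitors split. CISH and SOCS1 rose with progestin in siRNA cells, SOCS3 fell everywhere, and SOCS2 was close to silent. CISH, whose protein competes with STAT5 for the activated receptor, lies on chromosome 3 from 50606490 to 50611831 on the minus strand, opposite MAPKAPK3, which was counted by strand. ICRF progestin cells had 1.83 and 1.88 CPM against 1.77 and 1.58 CPM in ICRF untreated cells (log2 0.13 ± 0.17, adjusted p = 0.515). The siCEBPA cells had 13.1 and 14.1 CPM with progestin against 6.93 and 6.62 CPM untreated, a rise of 0.99 ± 0.08 (adjusted p = 3.98e-08). The siControl cells had 17.9 and 16.9 CPM with progestin against 7.64 and 7.54 CPM untreated, a rise of 1.19 ± 0.08 (adjusted p = 2.15e-09). The 4 ICRF libraries thus stood below all 8 siRNA libraries, and the ICRF response lay below the siControl response by a log2 difference of -1.05 ± 0.14 (adjusted p = 2.35e-06). With progestin, siCEBPA cells had less CISH than siControl cells (-0.35 ± 0.08, adjusted p = 0.00176). Untreated the change was -0.15 ± 0.08 (adjusted p = 0.155), and the siCEBPA and siControl responses were not called different (-0.20 ± 0.12, adjusted p = 0.394).

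SOCS3, an inhibitor of JAK kinases that acts mainly on receptors that signal through gp130, lies on chromosome 17 from 78356778 to 78360077 on the minus strand. It had 2.32 and 2.45 CPM in ICRF progestin cells against 4.25 and 3.42 CPM in ICRF untreated cells, a change of -0.70 ± 0.14 (adjusted p = 1.50e-05). In siCEBPA cells it had 2.59 and 2.76 CPM with progestin against 6.35 and 6.38 CPM untreated (-1.26 ± 0.10, adjusted p = 3.34e-08). The siControl cells had 9.20 and 9.20 CPM with progestin against 14.5 and 16.0 CPM untreated (-0.74 ± 0.09, adjusted p = 1.41e-06). Hormone and siRNA both went with less SOCS3, and the siRNA changes were the largest of the 10 genes in either state. The siCEBPA level relative to siControl was -1.77 ± 0.10 with progestin (adjusted p = 2.15e-09) and -1.25 ± 0.09 untreated (adjusted p = 1.38e-08), a 3.40-fold and a 2.39-fold fall. The siCEBPA response was the more negative by a log2 difference of -0.51 ± 0.14 (adjusted p = 0.030). It missed the threshold on leaving out any of 6 of the 8 siRNA libraries (adjusted p = 0.0792 to 0.102), the exceptions being siControl untreated replicate 2 and siCEBPA progestin replicate 2. The ICRF and siControl responses were not called different, with a log2 difference of 0.05 ± 0.15 (adjusted p = 0.827). The 6 group means fell in the order siControl untreated, siControl progestin, siCEBPA untreated, ICRF untreated, siCEBPA progestin and ICRF progestin, with no overlap between neighbours.

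SOCS1, whose protein inhibits JAK kinases directly, lies on chromosome 16 from 11254405 to 11256179 and had 15 to 216 counts per library. It was called higher with progestin in all 3 backgrounds. ICRF progestin cells had 2.00 and 1.68 CPM against 1.18 and 0.574 CPM in ICRF untreated cells (1.06 ± 0.24, adjusted p = 0.000412). That value was 0.621 without ICRF untreated replicate 2 and 1.657 without ICRF untreated replicate 1. In siCEBPA cells the levels were 0.553 and 1.20 CPM with progestin against 0.366 and 0.269 CPM untreated (1.43 ± 0.39, adjusted p = 0.00555), and the call was lost without siCEBPA progestin replicate 2 (0.794, adjusted p = 0.109) or siCEBPA untreated replicate 2 (1.244, adjusted p = 0.0507). The siControl cells had 1.73 and 1.79 CPM with progestin against 0.216 and 0.399 CPM untreated, a rise of 2.40 ± 0.33 (adjusted p = 1.62e-05) that held on leaving out any library (2.135 to 3.010). With progestin, siCEBPA cells had less SOCS1 than siControl cells (-1.01 ± 0.31, adjusted p = 0.0152), and the change was -1.649 without siCEBPA progestin replicate 2. The call was lost without siControl progestin replicate 1 (-1.046, adjusted p = 0.0677) or 2 (-0.984, adjusted p = 0.0735) and without siCEBPA progestin replicate 1 (-0.548, adjusted p = 0.157). Untreated, the change was -0.04 ± 0.42 (adjusted p = 0.947). The siCEBPA and siControl responses were not called different (-0.97 ± 0.53, adjusted p = 0.356), and the ICRF response lay below the siControl response, at -1.34 ± 0.51 (adjusted p = 0.0451). That call was lost without scaling factors (-1.185, adjusted p = 0.0656). It was also lost on leaving out ICRF untreated replicate 1 (-0.727, adjusted p = 0.246), either ICRF progestin library (-1.511 and -1.256, adjusted p = 0.0511 and 0.104), siControl untreated replicate 1 (-1.065, adjusted p = 0.132) or either siControl progestin library (-1.359 and -1.311, adjusted p = 0.099 and 0.109).

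SOCS2, an inhibitor best known for restraining growth hormone signalling, lies on chromosome 12 from 93569814 to 93583487 and had 1 to 38 counts per library, opposite its antisense gene SOCS2-AS1. ICRF progestin libraries had 10 and 12 counts against 29 and 15 in ICRF untreated libraries. The counts were 3 and 4 in siCEBPA progestin libraries against 9 and 5 in siCEBPA untreated libraries, and 1 and 6 in siControl progestin libraries against 12 and 38 in siControl untreated libraries. Among the siRNA libraries only the siControl untreated ones reached the minimum of the filter, 0.151 CPM, so SOCS2 entered that test through the group where it was highest. Its fitted siControl change, -1.88 ± 0.65, is therefore given as a description, and it was -1.051 without siControl progestin replicate 1 and -3.646 without siControl progestin replicate 2. The ICRF (-1.01 ± 0.54, adjusted p = 0.101) and siCEBPA (-0.98 ± 0.77, adjusted p = 0.295) changes were not called. At this depth smaller changes of SOCS2 were not detectable.

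BCL6 lies on chromosome 3 from 187721377 to 187745727 on the minus strand and, like JAK2, was higher with progestin in all 3 backgrounds. ICRF progestin cells had 66.9 and 66.0 CPM against 34.6 and 34.5 CPM in ICRF untreated cells (log2 0.93 ± 0.05, adjusted p = 6.87e-22). The siCEBPA cells had 110 and 117 CPM with progestin against 72.1 and 67.9 CPM untreated (0.69 ± 0.05, adjusted p = 4.25e-09). The siControl cells had 107 and 106 CPM with progestin against 64.0 and 61.1 CPM untreated (0.76 ± 0.05, adjusted p = 1.06e-09). The hormone thus went with a 1.61-fold to 1.90-fold level. The siCEBPA and siControl responses were not called different (-0.07 ± 0.07, adjusted p = 0.632). The ICRF response exceeded the siControl response by 0.17 ± 0.06 (adjusted p = 0.0326), a call lost with DESeq2 (0.142, adjusted p = 0.0943), with DESeq2 size factors (0.143, adjusted p = 0.0731) and on leaving out any of 7 of the 8 libraries compared (0.121 to 0.177, adjusted p = 0.0647 to 0.193), all but siControl untreated replicate 2. BCL6 was higher with siCEBPA in untreated cells (0.18 ± 0.05, adjusted p = 0.00745), lost without siControl untreated replicate 2 (0.139, adjusted p = 0.0817) or siCEBPA untreated replicate 1 (0.122, adjusted p = 0.120). With progestin the siRNA change was 0.10 ± 0.05 (adjusted p = 0.102), and it was called with upper quartile factors (0.126, adjusted p = 0.037) and without scaling factors (0.186, adjusted p = 0.00472).

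**Figure D3:**
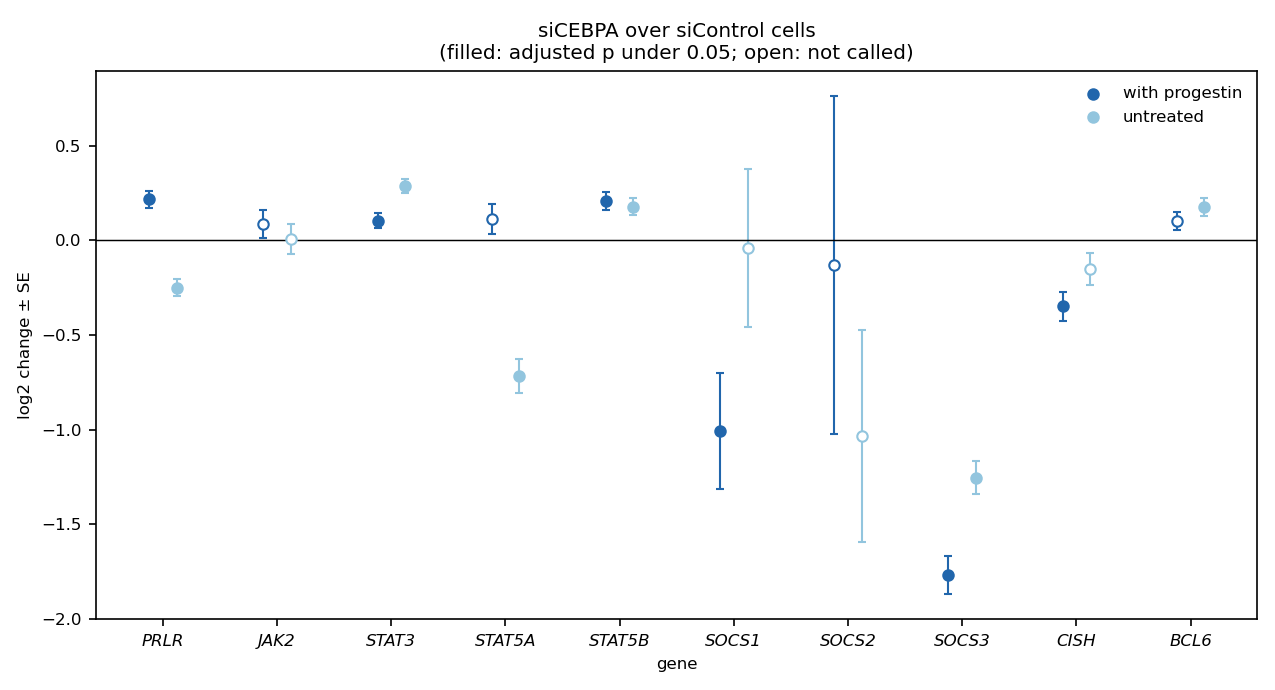
The log2 change in siCEBPA over siControl cells (y axis, ± SE) is plotted for each gene (x axis), with progestin and untreated, with filled points for an adjusted p under 0.05. SOCS3 is lowest in both states, at -1.77 with progestin and -1.25 untreated, and PRLR stands above 0 with progestin and below 0 untreated.

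With the siRNA against CEBPA, 3 of the 10 genes were higher (PRLR, STAT3, STAT5B) and 3 lower (SOCS1, SOCS3, CISH) in progestin cells, beside 22.5% and 22.1% of all genes tested. In untreated cells 3 were higher (STAT3, STAT5B, BCL6) and 3 lower (PRLR, STAT5A, SOCS3), beside 22.6% and 24.0%. The difference between siCEBPA and siControl responses was called positive for 2 genes and negative for 2, beside 4.19% and 3.06%. The difference between ICRF and siControl responses was called positive for 2 genes and negative for 5, beside 24.9% and 24.0%. Both sets of differences use the same 4 siControl libraries. Without scaling factors the median over all genes moved to 0.10 or 0.11 for the siRNA changes and to 0.17 for ICRF minus siControl. The share of calls that were higher was then 64.9% in place of 50.5% for the siRNA with progestin, 65.3% in place of 48.5% for it untreated, and 65.2% in place of 50.9% for ICRF minus siControl.

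**Figure D4:**
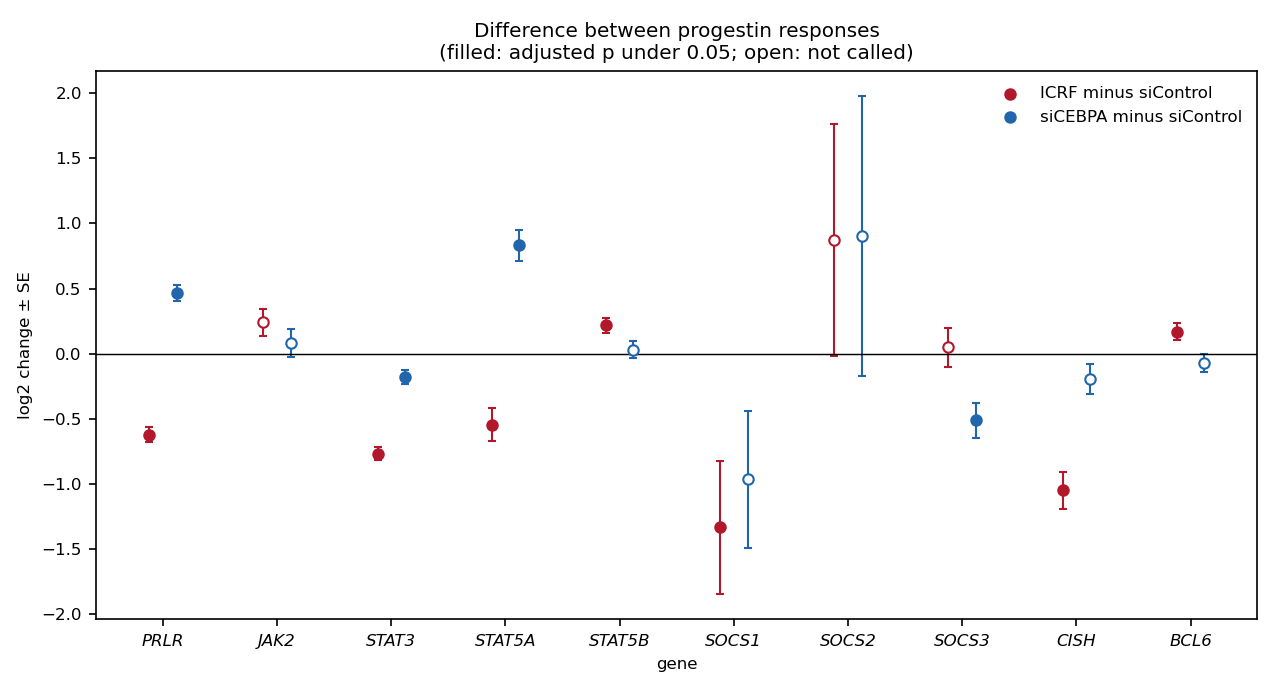
The difference between progestin responses on the log2 scale (y axis, ± SE) is plotted for each gene (x axis), as ICRF minus siControl and as siCEBPA minus siControl, with filled points for an adjusted p under 0.05. PRLR lies at -0.62 for ICRF and at 0.47 for siCEBPA, and STAT5A at -0.55 and 0.83.

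Among the other genes of the pathway, 77 of 99 listed genes had enough counts to test. Progestin raised 39 and lowered 22 in ICRF cells, raised 40 and lowered 20 in siCEBPA cells, and raised 40 and lowered 22 in siControl cells, with medians of 0.19, 0.24 and 0.19. The share raised was 50.6% with ICRF and 51.9% in each set of siRNA cells, beside 31.3%, 29.9% and 29.2% of all genes with ICRF, siCEBPA and siControl. The share lowered, 28.6% with ICRF, 26.0% with siCEBPA and 28.6% with siControl, was near the 30.0%, 28.4% and 29.3% of all genes. Without scaling factors 34 were raised and 29 lowered with siCEBPA, and 31 raised and 26 lowered with siControl. Of the calls over all genes, 33.3% and 33.9% were then higher, in place of 51.3% and 50%. With upper quartile factors 36 were raised and 28 lowered with siCEBPA, and 32 raised and 22 lowered with siControl. Of the calls over all genes, 36.9% and 38.2% were then higher. EPO, IGF1 and STAT4 passed the filter in siRNA cells only through progestin libraries, and IGF1 did so with ICRF too. The siRNA raised 21 (27.3%) and lowered 24 (31.2%) with progestin, beside 22.5% and 22.1% of all genes, and raised 18 (23.4%) and lowered 26 (33.8%) untreated, beside 22.6% and 24.0%. Without scaling factors it raised 28 and lowered 19 with progestin and raised 24 and lowered 22 untreated. Of the calls over all genes, 64.9% and 65.3% were then higher, in place of 50.5% and 48.5%. In both states the count raised was lower on leaving out any 1 library of the groups compared. Leaving out a library also removes counts, and the share of all genes in those fits is not given here.

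Of the 24 cytokine receptor genes, 20 were tested, of which progestin raised 12 with ICRF, 12 with siCEBPA and 13 with siControl and lowered 5, 4 and 5. The shares raised were 60%, 60% and 65%, beside 29.2% to 31.3% of all genes, and the shares lowered, 25%, 20% and 25%, were below the 28.4% to 30.0% of all genes. IL20RA, a subunit of receptors for the IL-20 family, averaged 232 CPM in ICRF progestin cells against 33.1 CPM in ICRF untreated cells (log2 2.80 ± 0.04). In siControl cells it averaged 266 CPM with progestin against 29.6 CPM untreated (3.15 ± 0.05). IL6ST encodes gp130, the shared receptor chain that signals to STAT3, and averaged 1220 CPM in siCEBPA progestin cells against 529 CPM in siCEBPA untreated cells (1.19 ± 0.04). In siControl cells it averaged 1060 CPM with progestin against 655 CPM untreated (0.69 ± 0.04), and the siCEBPA response exceeded the siControl response by 0.51 ± 0.06 (adjusted p = 5.65e-05). GHR, the growth hormone receptor and a close relative of PRLR, fell with progestin in ICRF cells (66.9 CPM with it against 125 CPM untreated, -0.92 ± 0.04) and rose in siControl cells (147 CPM with it against 83.5 CPM untreated, 0.81 ± 0.05). The difference between those responses was -1.73 ± 0.07 (adjusted p = 2.35e-14).

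Of the 14 ligand genes 6 were tested, and none averaged over 5.34 CPM. EPO, the erythropoietin gene, averaged 0.784 CPM with progestin against 0.00731 CPM untreated in siCEBPA cells, and 2.30 CPM in siControl progestin cells against 0.0382 CPM in siControl untreated cells. It entered the test of siRNA cells only through the progestin libraries, so these levels are given with no test. In ICRF cells it averaged 0.0189 CPM with progestin against 0.0144 CPM untreated. With progestin EPO was lower in siCEBPA than in siControl cells (-1.52 ± 0.24, adjusted p = 9.38e-05). CTF1, a cytokine of the IL-6 family, fell with progestin in all 3 backgrounds, by changes of -0.77 ± 0.12, -0.70 ± 0.14 and -0.75 ± 0.15 in ICRF, siCEBPA and siControl cells.

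Of the other kinase genes, JAK1 and JAK3 fell with progestin in all 3 backgrounds. JAK3 fell with progestin, averaging 2.52 CPM in ICRF progestin cells against 5.90 CPM in ICRF untreated cells (-1.24 ± 0.12). Its levels were 2.06 CPM with progestin against 8.93 CPM untreated in siCEBPA cells (-2.12 ± 0.13), and 2.01 CPM with progestin against 7.12 CPM untreated in siControl cells (-1.84 ± 0.13). JAK1 changed by -0.49 ± 0.04, -0.15 ± 0.04 and -0.27 ± 0.04 in ICRF, siCEBPA and siControl cells. TYK2 rose in siCEBPA (0.64 ± 0.07) and siControl cells (0.26 ± 0.07), the last a call lost without scaling factors (0.105, adjusted p = 0.197) and with upper quartile factors (0.148, adjusted p = 0.0705). With ICRF its change was 0.07 ± 0.06 (adjusted p = 0.350).

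Among the other STAT genes, STAT6, which answers to IL-4, averaged 60.5 CPM in ICRF progestin cells against 117 CPM in ICRF untreated cells (-0.96 ± 0.04). It averaged 96.4 CPM in siCEBPA progestin cells against 192 CPM in siCEBPA untreated cells (-0.998 ± 0.043). In siControl cells the means were 85.7 CPM with progestin against 222 CPM untreated (-1.39 ± 0.04). STAT2, a factor of the interferon response, was higher with progestin in ICRF cells (62.6 CPM with it against 45.9 CPM untreated, 0.43 ± 0.04) and lower in siControl cells (46.4 CPM with it against 83.0 CPM untreated, -0.85 ± 0.11).

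The other SOCS genes differed between ICRF and siRNA cells. All 4 rose with progestin in ICRF cells, among them SOCS7 (121 CPM with progestin against 61.5 CPM untreated, 0.96 ± 0.04) and SOCS4 (111 CPM with progestin against 63.3 CPM untreated, 0.79 ± 0.04). Of all genes, 31.3% rose and 30.0% fell with ICRF, 29.9% and 28.4% with siCEBPA, and 29.2% and 29.3% with siControl. In siCEBPA cells 1 of the 4 rose and 2 fell, and in siControl cells 1 rose and 1 fell. The rise was that of SOCS7 in both (0.18 ± 0.05 and 0.20 ± 0.04), and it was lost without scaling factors (0.016, adjusted p = 0.760, and 0.051, adjusted p = 0.311) and with upper quartile factors (0.052 and 0.095). SOCS4 averaged 50.3 CPM in siControl progestin cells against 74.0 CPM in siControl untreated cells (-0.57 ± 0.06). All 4 had an ICRF response above the siControl response, beside 24.9% of all genes. The difference was 1.37 ± 0.07 for SOCS4 and 0.76 ± 0.06 for SOCS7. With progestin 3 of the 4 were lower in siCEBPA than in siControl cells, beside 22.1% of all genes. SOCS7 was lower by a log2 change of -0.41 ± 0.05. The call of SOCS4 (-0.16 ± 0.06) was lost without scaling factors (-0.075, adjusted p = 0.346) and with upper quartile factors (-0.135, adjusted p = 0.0828).

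**Figure D5:**
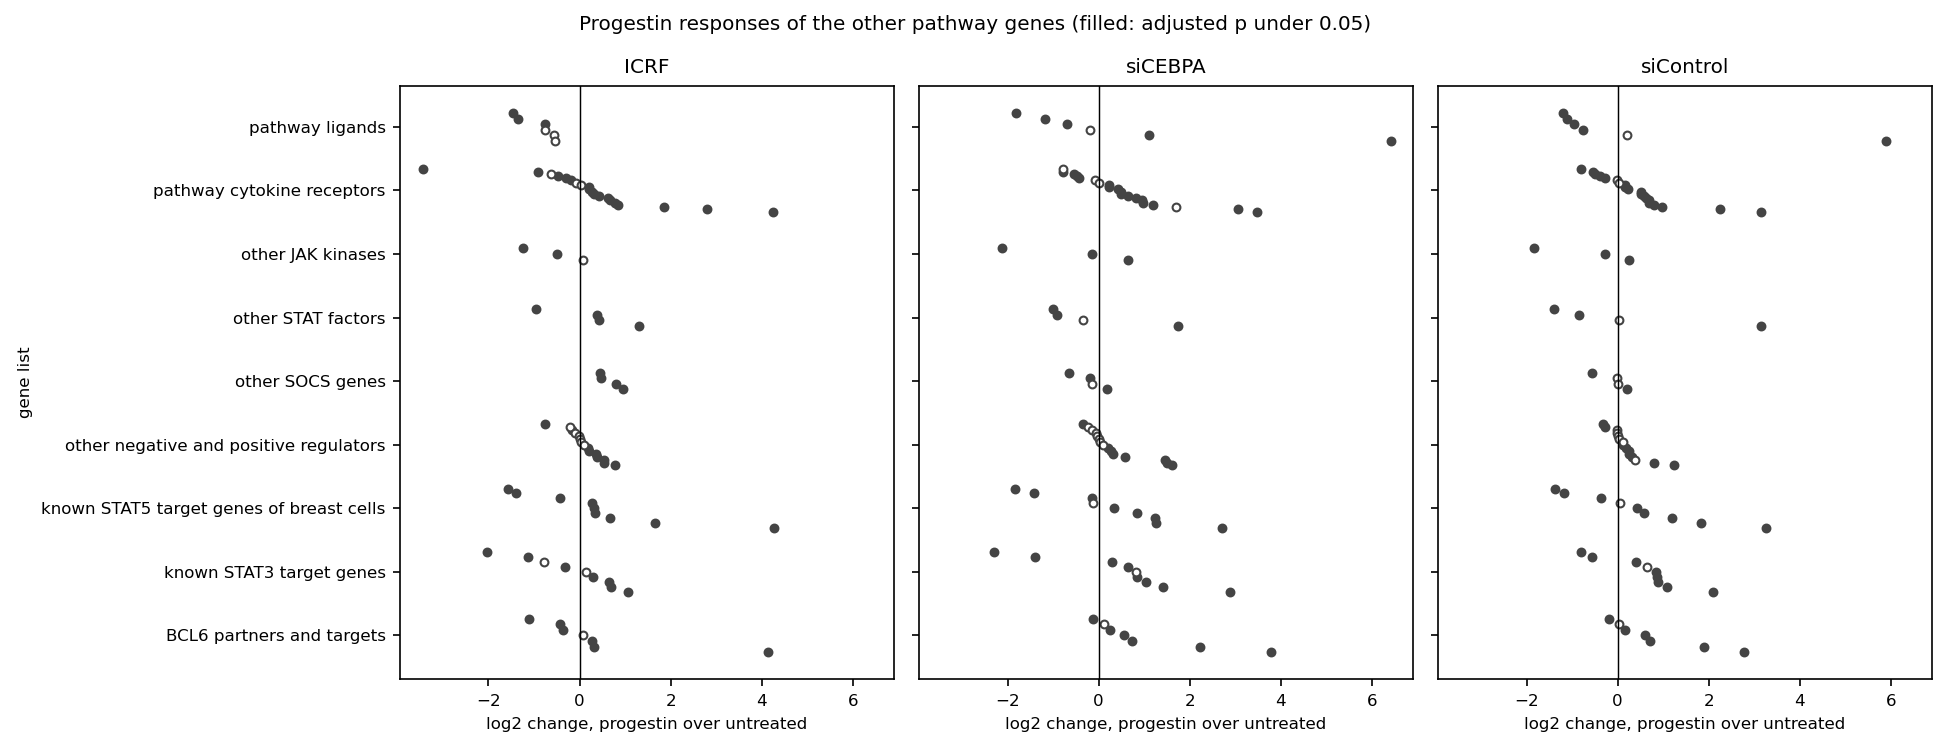
Each point is 1 tested gene of a pathway list (y axis) at its log2 change with progestin over untreated cells (x axis), in ICRF, siCEBPA and siControl cells, filled where the adjusted p is under 0.05. The 4 other SOCS genes all lie above 0 with ICRF, and IL20RA in the cytokine receptor list stands at 2.80 with ICRF and 3.15 with siControl.

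Of 14 known STAT5 target genes of breast cells, 9 were tested. Progestin raised 6 and lowered 3 with ICRF, and raised 5 and lowered 3 in each set of siRNA cells. The shares raised were 66.7% with ICRF, beside 31.3% of all genes, and 55.6% in siRNA cells, beside 29.2% to 29.9%. The share lowered, 33.3% in all 3 backgrounds, was near the 28.4% to 30.0% of all genes. IGF1, which is on this list, passed the filter only through progestin libraries, in siRNA cells only those with siCEBPA. A rise of it carries no weight, and the shares raised are inflated by counting it in all 3 backgrounds. PIM2, a survival kinase, averaged 89.2 CPM in ICRF progestin cells against 28.0 CPM in ICRF untreated cells (1.65 ± 0.05). In siControl cells it averaged 97.7 CPM with progestin against 27.0 CPM untreated (1.84 ± 0.05). Its siCEBPA response was smaller than the siControl response, by a log2 difference of -0.59 ± 0.07 (adjusted p = 0.000127). BCL2L1, which encodes the survival protein BCL-xL, averaged 757 CPM in siCEBPA progestin cells against 319 CPM in siCEBPA untreated cells (1.24 ± 0.04). The siControl means were 524 CPM with progestin against 227 CPM untreated (1.19 ± 0.04). With ICRF the rise was smaller, to 368 CPM in progestin cells against 301 CPM in untreated cells (0.27 ± 0.03), and the ICRF minus siControl difference was -0.92 ± 0.05 (adjusted p = 1.96e-12). ELF5, a factor of alveolar cells, fell, with 25.2 CPM with progestin against 65.6 CPM untreated in ICRF cells (-1.39 ± 0.05), and 49.4 CPM with progestin against 127 CPM untreated in siControl cells (-1.38 ± 0.06). Of the milk genes, CSN2 and CSN3 had 0 counts in all 12 libraries, which allows up to 0.0523 CPM in the shallowest one (counting error only), LALBA had at most 3 counts and CSN1S1 at most 2.

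Of 11 known STAT3 targets 9 were tested. Progestin raised 4 and lowered 3 with ICRF, 44.4% and 33.3%, beside 31.3% and 30.0% of all genes. In each set of siRNA cells it raised 6 and lowered 2, 66.7% and 22.2%. Of all genes, 29.9% rose and 28.4% fell with siCEBPA, and 29.2% and 29.3% with siControl. HIF1A, the oxygen-regulated factor, averaged 316 CPM in siCEBPA progestin cells against 175 CPM in siCEBPA untreated cells (0.85 ± 0.04). The siControl means were 299 CPM with progestin against 160 CPM untreated (0.89 ± 0.04). With ICRF HIF1A averaged 217 CPM with progestin against 175 CPM untreated (0.29 ± 0.03), and the ICRF minus siControl difference was -0.60 ± 0.05 (adjusted p = 5.62e-09). With the siRNA 6 of the 9 were lower with progestin, beside 22.1% of all genes, and untreated 5 were lower and 1 higher, beside 24.0% and 22.6%. The progestin call of CEBPD (-0.50 ± 0.18, adjusted p = 0.0486) was lost without scaling factors (-0.411, adjusted p = 0.092) and with upper quartile factors (-0.471, adjusted p = 0.0616). Examples are the angiogenic factor VEGFA, at 37.0 CPM in siCEBPA progestin cells against 72.9 CPM in siControl progestin cells (-0.96 ± 0.08), and CEBPB, a relative of CEBPA, at 11.5 CPM in siCEBPA progestin cells against 21.7 CPM in siControl progestin cells (-0.90 ± 0.08).

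Of 9 BCL6 partners and targets 7 were tested. Progestin raised 3 and lowered 3 with ICRF, 42.9% each way beside 31.3% and 30.0% of all genes. In each set of siRNA cells it raised 5 and lowered 1, 71.4% and 14.3%. The shares of all genes raised and lowered were 29.9% and 28.4% with siCEBPA and 29.2% and 29.3% with siControl. NCOR1 lost its rise without scaling factors, at 0.075 with siCEBPA (adjusted p = 0.13) and 0.014 with siControl (adjusted p = 0.781). PRDM1 encodes Blimp-1, a repressed target of BCL6 in B cells, and was higher with progestin along with BCL6, averaging 4.79 CPM with progestin against 0.270 CPM untreated in ICRF cells (4.13 ± 0.20). It averaged 6.31 CPM with progestin against 0.456 CPM untreated in siCEBPA cells (3.78 ± 0.18), and 2.90 CPM with progestin against 0.409 CPM untreated in siControl cells (2.77 ± 0.18).

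The genes most like the 3 members of widest range were sought over the 12 libraries among 11403 genes with at least 5 CPM in 1 group, by Pearson's r of log2 CPM, as a description. CISH was nearest to PNPLA3 (r = 0.996), INTS6 (0.991) and TMEM120A (0.991). SOCS3 was nearest to SLC6A9 (0.981), RTN4RL2 (0.972) and ST6GALNAC4 (0.968). SOCS1 was nearest to MRPL15 (0.939), WASL (0.939) and AGO1 (0.928). The 12 points share 6 groups of 2, and for CISH much of the range lies between ICRF and siRNA cells.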

How the data were processed

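The authors deposited a raw count of read pairs for every gene, made with featureCounts 1.5.1 in paired, reverse-strand mode on GENCODE 24 genes of hg38 from STAR alignments, per the file headers. Reads with several alignments were not counted, since no option for them was set there. The submitters' processing notes also name Trimmomatic.

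Identifiers were matched to symbols without their version. Tests used edgeR 4.0.16 in R 4.3.3: filterByExpr, TMM, glmQLFit with robust estimation, glmQLFTest and Benjamini-Hochberg adjustment at 0.05. The fits held the 8 siRNA libraries (18351 genes), the 4 ICRF libraries (18556) and all 12 (19003, for ICRF minus siControl). Levels are CPM with TMM factors over all 12 libraries, as mean ± SD (n = 2) where an error is given. The steps were tested on simulated counts.

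The members, lists and tests were chosen with earlier results of these data known. Named pathway genes are among the 3 of each list with the smallest p in a comparison; CEBPD, CSN1S1, CSN2, CSN3, IGF1, LALBA and PRL were added after their values were seen. Alternatives were other scalings, DESeq2 1.42.0, no filter, a replicate block, 1 fit of all libraries and leaving out each library. Counting error at these depths is small except for SOCS1 and SOCS2.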

Additional observations from a re-analysis of the deposited data

Results flagged for a closer look

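For several of the genes the progestin response differed between backgrounds by a test of the difference itself, in edgeR with adjustment over all genes. No cause was tested. Between siCEBPA and siControl cells, the log2 difference of responses was 0.47 for PRLR, 0.83 for STAT5A, -0.51 for SOCS3 and -0.18 for STAT3. PRLR and STAT5A kept their call under every alternative run, while SOCS3 and STAT3 lost it on leaving out most single libraries. PRLR and STAT5A share the feature that the siRNA lowered them in untreated cells and not in progestin cells.

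Between ICRF and siControl cells, the log2 difference of responses was -0.62 for PRLR, -0.77 for STAT3, -0.55 for STAT5A, 0.22 for STAT5B, -1.34 for SOCS1, -1.05 for CISH and 0.17 for BCL6. SOCS1 and BCL6 lost their call under several alternatives, and the others did not under any run. The summed luminal markers reached 5280 CPM in ICRF progestin cells and 10600 CPM in ICRF untreated cells, against 9050 to 9720 CPM in siControl progestin cells and 8700 to 9160 CPM in siControl untreated cells. Their part in these differences was not tested.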

How the results depend on the processing

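Of 70 results for single genes (10 genes in 7 comparisons), 56 kept their side of the threshold, and their direction where called, wherever the gene was tested, over 836 alternative values in all; 52 values fell below the threshold, 6 passed it and no called value changed sign. For the siCEBPA minus siControl difference, genes of the 10 called negative were 1 with no filter on low counts and 0 to 1 on leaving out 1 library, against 2; all genes called positive were 1159 with no filter, 1324 with the replicate block and 383 to 811 on leaving out 1 library, against 768, and all genes called negative 947 with the block and 305 to 570 on leaving out 1 library, against 561. For the ICRF minus siControl difference, genes of the 10 called positive were 1 with DESeq2 size factors, 1 with DESeq2 and 1 to 2 on leaving out 1 library, against 2. The cause was not tested; leaving out a library also removes counts. Replicate numbers were checked for pairing: deviations of same-numbered libraries correlated at -0.023 to 0.049. Little pairing by number was thus seen, though correlations this low cannot exclude it. With the replicate block the ICRF minus siControl difference for SOCS1 was no longer called (-1.324, adjusted p = 0.0627), while the 10 genes' other calls did not change. SOCS1 and SOCS2 are limited by depth, at 1 to 216 counts per library.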
